A study of Mus musculus with 2 samples.

Results

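Transcript levels of 9 genes of the nuclear envelope, Syne1, Syne2, Sun1, Sun2, Lmna, Lmnb1, Lmnb2, Lbr and Emd, were described across the cell types of the mouse retina at P30. The genes were taken by name, all 9 were found among the 25778 genes of the count table, and Syne1 was included because its level was already seen to fall in cones, so that its value there is a description of what chose it. The data were droplet single-cell RNA-seq of retina, with 1 library from a Chx10-Cre mouse carrying unfloxed Ptbp1 (Ptbp1-Ctrl) and 1 library from a Chx10-Cre;Ptbp1lox/lox mouse (Ptbp1-KO), both aged 30 days. Both mice carried the Chx10-Cre transgene, which expresses a Cre-GFP fusion in retinal progenitors, and in Ptbp1-KO the loxP sites flank the promoter and first exon of Ptbp1, so that cells descending from those progenitors lose them. Some other mice of the study carried a Sun1-GFP reporter, and the labels of these 2 libraries give none. With 1 mouse and 1 library per genotype no test between genotypes was possible, and genotype, animal, dissociation and library cannot be told apart. The comparison asks how far loss of Ptbp1, a regulator of splicing that non-neuronal cells use, goes along with changed expression in mature retinal cells.

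The nuclear envelope carries the LINC complex, in which SUN proteins of the inner membrane hold nesprins of the outer membrane and so tie the lamina to the cytoskeleton. In the developing retina, nesprin 2 and the SUN proteins take part in moving photoreceptor nuclei. Adult mouse rods are known for an inverted nucleus with heterochromatin in the centre, and for lacking the proteins of both peripheral tethers, the lamin B receptor and lamin A/C, that hold heterochromatin to the envelope in most other cells.

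The Ptbp1-Ctrl library held 16421 cells and the Ptbp1-KO library 14522, with median depths of 1442 and 1740 unique molecular identifiers (UMIs) per cell, and 63 cell barcodes occurred in both. Levels are in CPM, meaning that all cells of a type in a library were summed and scaled to 1000000 UMIs, for the 5 types with the most UMIs, whose sums ran from 1425527 UMIs in cones of Ptbp1-KO to 14494233 in rods of Ptbp1-KO. Intervals are exact, at 95%, and leave out all but counting error. Each type held its own markers at the highest summed level in both libraries. The cells named retinal ganglion cells (124 and 97 cells) also held the 5 rod markers used here at a median of 59.96% and 66.9% of their levels in rods, and horizontal cells numbered 17 and 7, so both were left out of counts. Ptbp1 itself stood at 13.8 to 49.8 CPM over the 5 types in Ptbp1-Ctrl and at 0.0977 to 1.18 CPM in Ptbp1-KO. The study describes both mice as female. The libraries went against this, with 5 and 6 UMIs of Xist in Ptbp1-Ctrl and Ptbp1-KO against at least 1413 UMIs of each of the Y-linked genes Ddx3y, Eif2s3y, Kdm5d and Uty, and the 2 libraries did not differ from each other in this respect.

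Syne1 encodes nesprin 1, a giant spectrin-repeat protein of the outer nuclear membrane. It lies at chr10:5020917-5551482 on the minus strand (mm10, GENCODE annotation), a span of 530.566 kb with 5 coding transcripts that begin in 4 regions and end in 5, so that a count from 3' reads pools several forms. Gm10097 overlaps it on the opposite strand over 2784 bases, antisense genes overlap Sun1 and Sun2, and whether the counting used strand is not given in the sources used here. Its promoter windows are shown because the gene differed between the libraries in opposite directions in different cell types, and a start could not be read from 3' reads. The windows are from RefSeq (GRCm38.p6, minus strand), each holds 250 bases before and 50 bases after an annotated start, and they lie at chr10:5550643-5550942, chr10:5488265-5488564 and chr10:5069014-5069313. Capitals mark GGGCGG or its reverse complement CCGCCC, the box bound by Sp factors, which occurs in 35.7% of 32851 windows of the same length. TAATCC or its reverse complement GGATTA, the site preferred by the photoreceptor factor Crx, was searched on both strands too and occurs in 7.06% of the windows.
Syne1 upstream window: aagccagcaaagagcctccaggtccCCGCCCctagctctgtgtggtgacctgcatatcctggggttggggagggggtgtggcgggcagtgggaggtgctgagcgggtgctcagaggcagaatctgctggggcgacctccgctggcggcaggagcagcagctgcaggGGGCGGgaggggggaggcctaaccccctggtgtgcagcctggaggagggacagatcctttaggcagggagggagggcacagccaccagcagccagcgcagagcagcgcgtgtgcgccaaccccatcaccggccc
Syne1 middle window: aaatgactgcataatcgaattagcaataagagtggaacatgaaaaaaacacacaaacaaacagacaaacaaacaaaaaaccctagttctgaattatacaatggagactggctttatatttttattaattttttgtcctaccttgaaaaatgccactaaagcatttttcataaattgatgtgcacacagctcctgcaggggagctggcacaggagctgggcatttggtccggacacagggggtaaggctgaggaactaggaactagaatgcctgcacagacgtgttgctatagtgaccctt
Syne1 downstream window: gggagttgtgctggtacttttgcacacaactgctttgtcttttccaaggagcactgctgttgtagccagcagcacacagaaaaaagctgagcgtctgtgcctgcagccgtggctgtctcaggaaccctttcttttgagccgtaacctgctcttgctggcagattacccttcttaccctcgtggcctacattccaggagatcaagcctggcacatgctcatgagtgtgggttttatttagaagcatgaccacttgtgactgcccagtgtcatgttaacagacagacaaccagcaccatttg
The upstream window held 2 GGGCGG boxes and the other two held none, and TAATCC was in none of the 3.

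In cones, which made up 632 and 439 cells, Syne1 stood at 156 CPM (138 to 176, 272 UMIs) in Ptbp1-Ctrl and at 64.5 CPM (52.0 to 79.1, 92 UMIs) in Ptbp1-KO. The level was 2.42-fold lower in Ptbp1-KO, a log2 ratio of -1.27 (interval -1.63 to -0.93), and the 2 intervals did not overlap. Of the 7968 genes with at least 50 UMIs in cones over both libraries, 16 had a ratio as low as that of Syne1 or lower, Syne1 included. In these cells 3.19% of genes were at least 1.5-fold lower in Ptbp1-KO and 4.29% at least 1.5-fold higher. The share of cones with a Syne1 UMI was 32.0% (28.3 to 35.8) in Ptbp1-Ctrl and 17.8% (14.3 to 21.7) in Ptbp1-KO. At 1000 UMIs per cell these shares were 13.4% (10.8 to 16.4, 589 cells) and 5.65% (3.65 to 8.29, 425 cells), and their intervals did not overlap, from cells with median depths of 2659.5 and 3179 UMIs. Müller glia, the type with the lowest level, had shares of 5.53% (4.48 to 6.74) and 2.64% (1.80 to 3.73) at the same depth, from cells with median depths of 3333 and 4178 UMIs. In Ptbp1-KO the intervals of cones and Müller glia thus overlapped, and in Ptbp1-Ctrl they did not.

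RNA from rods was present in the other types, and its level bears on Syne1, which was high in rods. In cones the 5 rod markers Gnat1, Pde6a, Sag, Nrl and Nr2e3 stood at a median of 25.2% of their rod level in Ptbp1-Ctrl (range 22.2 to 55.7) and 26.05% in Ptbp1-KO (22.5 to 52.5). Syne1 in cones was at 40.8% of its rod level in Ptbp1-Ctrl and at 27.3% in Ptbp1-KO. The level in cones of Ptbp1-KO was therefore close to what the rod markers gave, and the level in cones of Ptbp1-Ctrl was above their median but inside their range. Scaled to these markers, the profile of the whole library made up an estimated 50.2% and 51.2% of the UMIs in cones. When it was subtracted at that share, all Syne1 was removed from cones in both libraries and no ratio could be given. The part of rod RNA in the ratio was not tested.

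Rods, the type with the most cells, also had less Syne1 in Ptbp1-KO. The level was 382 CPM (371 to 392, 4976 UMIs) in Ptbp1-Ctrl and 237 CPM (229 to 245, 3429 UMIs) in Ptbp1-KO, 1.61-fold lower on the latter side (log2 ratio -0.69, -0.75 to -0.63). Among 12742 genes in rods, 1.37% were at least 1.5-fold lower and 8.95% at least 1.5-fold higher. The authors split rods into 4 clusters, and Syne1 was lower in Ptbp1-KO in all 4, with log2 ratios from -0.92 in cluster 3 (192 and 101 CPM) to -0.72 in cluster 0 (488 and 296 CPM). The ratio over all rods was smaller than that of any cluster. Cluster 0, which had the highest level, held 5462 of 9301 rods in Ptbp1-KO and 4614 of 10058 in Ptbp1-Ctrl. At 1000 UMIs per cell, 28.6% (27.5 to 29.8) of rods in Ptbp1-Ctrl and 19.7% (18.7 to 20.7) in Ptbp1-KO had a Syne1 UMI, after 4155 and 3126 shallower rods were left out. Without thinning the shares were 35.7% and 28.1%.

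Bipolar cells went the other way. Syne1 stood at 364 CPM (352 to 376) in Ptbp1-Ctrl and 430.1 CPM (418 to 443) in Ptbp1-KO. The log2 ratio, 0.24 (0.18 to 0.31), is within the 1.5-fold bound. In bipolar cells 2.07% of 13070 genes were at least 1.5-fold lower and 3.53% at least 1.5-fold higher. Of 10 bipolar clusters, 7 had a higher level in Ptbp1-KO and 3 a lower one, with log2 ratios from -0.14 to 0.30. Levels differed more between clusters than between libraries, from 188 to 578 CPM in Ptbp1-Ctrl and from 182 to 674 CPM in Ptbp1-KO. At 1000 UMIs per cell the shares were 29.7% (28.1 to 31.3) and 34.8% (32.9 to 36.7).

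Amacrine cells held the most Syne1 among the 5 types, at 689.5 CPM (653 to 727) in Ptbp1-Ctrl and 616 CPM (592 to 642) in Ptbp1-KO. The log2 ratio was -0.16 (-0.26 to -0.06). The 3 amacrine clusters ran from 326 to 1287 CPM in Ptbp1-Ctrl and from 273 to 1240.2 CPM in Ptbp1-KO, with cluster 15 the highest and cluster 6 the lowest in both libraries. All 3 were lower in Ptbp1-KO, by log2 ratios from -0.26 to -0.05, and the interval of the highest cluster included 0. In horizontal cells, counted from 101 and 42 UMIs, the level was 912 CPM (743 to 1108) and 980.1 CPM (706 to 1325), with a log2 ratio of 0.10 (-0.45 to 0.64).

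Müller glia, the radial glia of the retina, held the least Syne1, at 63.2 CPM (56.9 to 69.9) in Ptbp1-Ctrl and 44.6 CPM (39.0 to 50.8) in Ptbp1-KO. The log2 ratio was -0.50 (-0.75 to -0.26). These levels were 16.5% and 18.9% of those in rods, and the 5 rod markers stood in Müller glia at medians of 15.1% (14.8 to 16.6) and 13.9% (12.1 to 15.3) of their rod levels. Syne1 in Müller glia was therefore at or just above the level that rod markers showed there, and the part of rod RNA in its ratio was not tested. Cluster 22, 89 and 54 of the cells named Müller glia, held the bipolar transcripts Pcp2 at 992 and 1248 CPM and Trpm1 at 752 and 862 CPM beside the glial transcript Glul at 6205 and 5725 CPM, and its Syne1 was 193 and 225 CPM. Over the other settings tried the log2 ratio in Müller glia lay between -1.18 and -0.50. Without this cluster, a step added after the data were seen, the log2 ratio in Müller glia was -0.74. In the largest glial cluster, 4, Syne1 was 46.9 and 28.9 CPM.

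**Figure D1:**
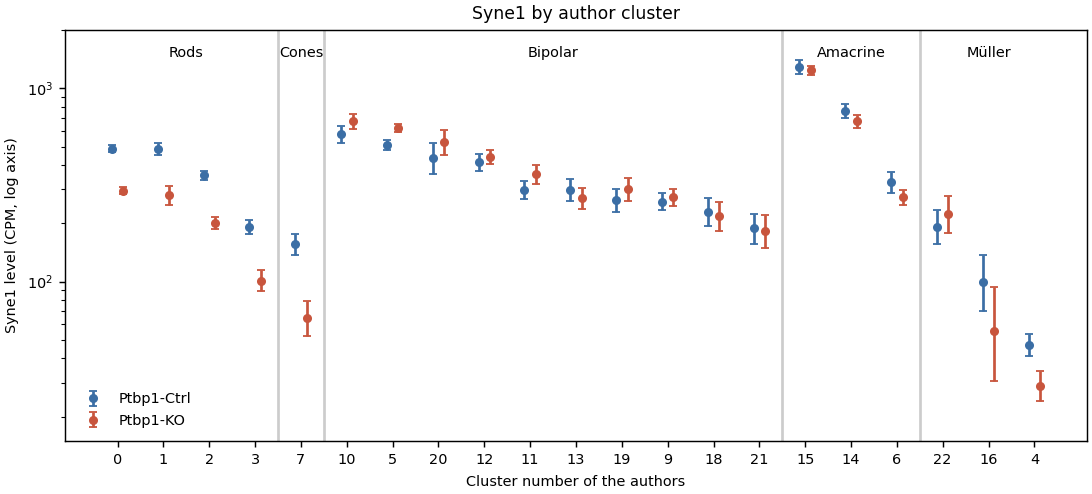
Level of Syne1 (CPM, log axis) in each cluster of the authors, grouped by cell type, for Ptbp1-Ctrl (blue) and Ptbp1-KO (red), with exact 95% Poisson intervals that cover counting error only. The 4 rod clusters and the cone cluster are lower in Ptbp1-KO, 7 of 10 bipolar clusters are higher, and cluster 22 stands above the other 2 glial clusters.

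**Figure D2:**
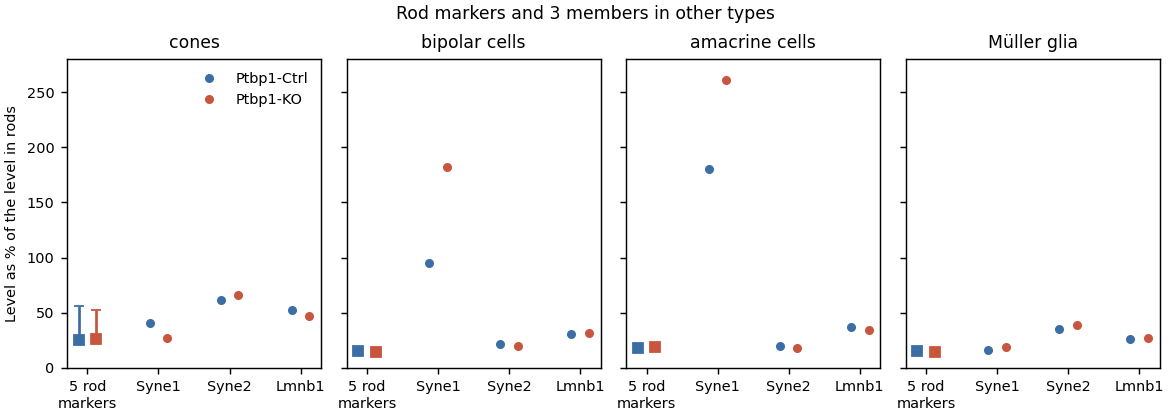
Level in cones, bipolar cells, amacrine cells and Müller glia as a percentage of the level in rods of the same library, for 5 rod markers (square at the median, bar from the lowest to the highest) and for Syne1, Syne2 and Lmnb1 (points), in Ptbp1-Ctrl (blue) and Ptbp1-KO (red). Syne1 in Müller glia, at 16.5% and 18.9%, and Syne1 in cones of Ptbp1-KO, at 27.3%, lie near the rod markers, and Syne1 in amacrine cells lies far above them at 181% and 261%.

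Syne2 encodes nesprin 2, the other giant nesprin, and lies at chr12:75818134-76110926 on the plus strand over 292.793 kb, with 10 coding transcripts. Its level in rods was 314 CPM (304 to 323) in Ptbp1-Ctrl and 317 CPM (308 to 326) in Ptbp1-KO, and the log2 ratio was 0.01 (-0.05 to 0.08). The 2 libraries thus differed by less than counting error in the cells where Syne1 was 1.61-fold lower. Cones were second at 192 and 209 CPM, followed by Müller glia at 111 and 123 CPM. Bipolar cells at 68.9 and 62.3 CPM and amacrine cells at 62.4 and 57.3 CPM were lowest and overlapped in their range over the libraries. Syne2 in amacrine cells was at 19.9% and 18.1% of its rod level, where rod markers stood at medians of 17.9% and 18.6%, whereas in Müller glia it was at 35.3% and 38.8%, above the rod markers. The log2 ratio of Syne2 in rods over bipolar cells, as the mean of the libraries, ran from 2.25 to 4.30 over the settings, the highest after background subtraction, which gave no value against amacrine cells. The order of types for Syne2, with rods and cones first and amacrine cells last, was thus unlike that for Syne1, which had amacrine cells first. The ranges of Syne1 in bipolar cells and rods overlapped, and the other neighbours in its order lay apart by their levels. Cones of Ptbp1-KO at 64.5 CPM (52.0 to 79.1) and Müller glia of Ptbp1-Ctrl at 63.2 CPM (56.9 to 69.9) overlapped in their intervals.

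Sun1 and Sun2 encode the inner membrane partners of the nesprins. Sun1 varied little over the types, from 38.3 and 44.8 CPM in amacrine cells and 42.0 and 44.6 CPM in rods to 59.1 and 67.2 CPM in Müller glia, in Ptbp1-Ctrl and Ptbp1-KO respectively. By their levels only the Müller glia stood apart from all other types in both libraries, and their intervals overlapped those of cones within each library. Its log2 ratios between libraries ran from -0.13 in cones to 0.23 in amacrine cells, and every interval included 0. Sun2 was sparse, with 4.60 and 4.002 CPM in rods (60 and 58 UMIs) and 12.9 and 9.04 CPM in Müller glia (76 and 46 UMIs). Rods had the lowest Sun2 level of the 5 types, at 35.8% and 44.2% of that in Müller glia. Their intervals overlapped those of cones and bipolar cells in both libraries, so the lowest place was not resolved. In amacrine cells Sun2 was 6.13 CPM (3.17 to 10.7, 12 UMIs) and 9.85 CPM (6.97 to 13.5, 38 UMIs), with a log2 ratio of 0.68 whose interval, -0.28 to 1.76, included 0.

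Lmna encodes lamins A and C, the lamins of differentiated cells, and lies at chr3:88480147-88509956 on the minus strand. It was nearly undetected in rods. There were 16 UMIs in the 10058 rods of Ptbp1-Ctrl and 20 UMIs in the 9301 rods of Ptbp1-KO, or 1.23 CPM (0.701 to 1.99) and 1.38 CPM (0.843 to 2.13). A UMI was found in 0.129% (0.0688 to 0.221) and 0.204% (0.123 to 0.319) of rods, and the 16 UMIs of Ptbp1-Ctrl came from 13 cells. Levels were highest in amacrine cells at 16.9 and 18.4 CPM, then in Müller glia at 10.2 and 11.4 CPM and in bipolar cells at 10.0 and 11.3 CPM, and these last types overlapped. Cones had 5.73 CPM (2.75 to 10.5, 10 UMIs) and 2.81 CPM (0.765 to 7.18, 4 UMIs). The level in rods was 12.1% of that in Müller glia in both libraries, and on the log2 scale the ratio was -3.05 (-3.94 to -2.23) in Ptbp1-Ctrl and -3.05 (-3.86 to -2.29) in Ptbp1-KO. The 6 markers of Müller glia stood in rods at medians of 0.719% and 0.598% of their glial level. Markers of bipolar cells stood in rods at medians of 2.94% and 2.99% of their bipolar level, with ranges of 1.19 to 33.7% and 1.10 to 34.3% that held the values of Lmna, 12.3% and 12.2%. Markers of amacrine cells stood at medians of 1.15% (0.491 to 7.06) and 1.38% (0.618 to 7.88), with Lmna at 7.28% and 7.50% of its amacrine level, just above the range in Ptbp1-Ctrl and inside it in Ptbp1-KO. The part of RNA from other cells in the Lmna UMIs of rods was not tested. At 1000 UMIs per cell 0.102% and 0.130% of rods and 1.02% and 0.938% of Müller glia had a UMI.

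Lbr encodes the lamin B receptor, the tether that in most cells precedes lamin A/C in development, and lies at chr1:181815335-181843046 on the minus strand. Its transcript was not low in rods. Levels were 29.0 CPM (26.1 to 32.1, 378 UMIs) and 25.9 CPM (23.4 to 28.7, 376 UMIs) in rods, 28.1 and 26.2 CPM in amacrine cells, 22.9 and 25.3 CPM in cones, 22.9 and 20.7 CPM in bipolar cells and 19.6 and 17.3 CPM in Müller glia. Rods and amacrine cells overlapped at the top of this order, and the span from the highest to the lowest type was narrow beside that of Lmna. The log2 ratio of rods over Müller glia was 0.56 (0.26 to 0.87) in Ptbp1-Ctrl and 0.58 (0.25 to 0.94) in Ptbp1-KO. At 1000 UMIs per cell a UMI was found in 2.83% (2.42 to 3.28) and 2.53% (2.15 to 2.95) of rods and in 2.16% (1.52 to 2.98) and 1.62% (0.978 to 2.52) of Müller glia, so the types overlapped on this measure in Ptbp1-Ctrl and also in Ptbp1-KO. The last 440 bases of Lbr overlap Dnah14 on the opposite strand. The counts are of RNA, and protein was not measured in these libraries.

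The promoter windows of the 2 tether genes are shown beside each other because rods held little Lmna but held Lbr at a level like that of other types. They are from RefSeq (GRCm38.p6, minus strand) at chr3:88503303-88503602 for Lmna and chr1:181842352-181842651 for Lbr, and capitals again mark GGGCGG or CCGCCC.
Lmna: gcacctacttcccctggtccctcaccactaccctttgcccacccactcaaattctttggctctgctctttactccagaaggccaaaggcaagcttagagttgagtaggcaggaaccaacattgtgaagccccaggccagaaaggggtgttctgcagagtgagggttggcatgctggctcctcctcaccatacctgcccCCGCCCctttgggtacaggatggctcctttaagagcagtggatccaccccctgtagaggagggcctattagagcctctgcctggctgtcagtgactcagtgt
Lbr: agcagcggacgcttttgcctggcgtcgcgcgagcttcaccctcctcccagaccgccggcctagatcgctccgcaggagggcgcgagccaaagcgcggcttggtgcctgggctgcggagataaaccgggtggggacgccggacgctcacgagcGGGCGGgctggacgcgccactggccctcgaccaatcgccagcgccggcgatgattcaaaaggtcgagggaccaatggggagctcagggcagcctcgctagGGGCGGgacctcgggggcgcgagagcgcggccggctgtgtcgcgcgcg
The Lmna window held 1 GGGCGG box and the Lbr window 2, and neither held TAATCC. A second Lmna window, at chr3:88493263-88493562, held no match of either kind. Promoter windows were matched for 8 of the 9 genes.

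Lmnb1 and Lmnb2 encode the B-type lamins, which most cells keep throughout life. Lmnb1 was highest in rods, at 91.1 CPM (86.0 to 96.4) in Ptbp1-Ctrl and 87.5 CPM (82.7 to 92.4) in Ptbp1-KO. It fell in the order of cones (48.1 and 41.4 CPM), amacrine cells (33.7 and 30.3), bipolar cells (28.1 and 27.7) and Müller glia (23.7 and 24.0), with no overlap of levels between neighbours over the libraries. By their intervals only rods lay apart, and the other neighbours overlapped within each library. The log2 ratios of rods over Müller glia were 1.94 (1.69 to 2.21) and 1.87 (1.60 to 2.15), and their mean ran from 1.84 to 2.99 over the settings, the highest after background subtraction. Lmnb1 in Müller glia was at 26.0% and 27.4% of its rod level, above the range of the rod markers there. Lmnb2 had 14.6 and 15.2 CPM in rods and 7.28 and 6.49 CPM in Müller glia, and cones, bipolar cells and amacrine cells lay between and overlapped. In amacrine cells it was 12.3 CPM (7.86 to 18.3, 24 UMIs) and 8.04 CPM (5.46 to 11.4, 31 UMIs), and the interval of its log2 ratio of -0.61, from -1.43 to 0.22, included 0. Emd encodes emerin, an inner membrane protein that binds lamins, and was low in rods at 16.8 CPM (14.6 to 19.2) and 19.5 CPM (17.3 to 21.9). Rods and cones (22.3 and 16.8 CPM) overlapped, and Müller glia had the highest level of Emd at 34.9 and 31.5 CPM. The 3' part of Emd overlaps the processed pseudogene Gm14686 on the same strand over 343 bases, and the pseudogene had no row of its own in the count table.

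**Figure D3:**
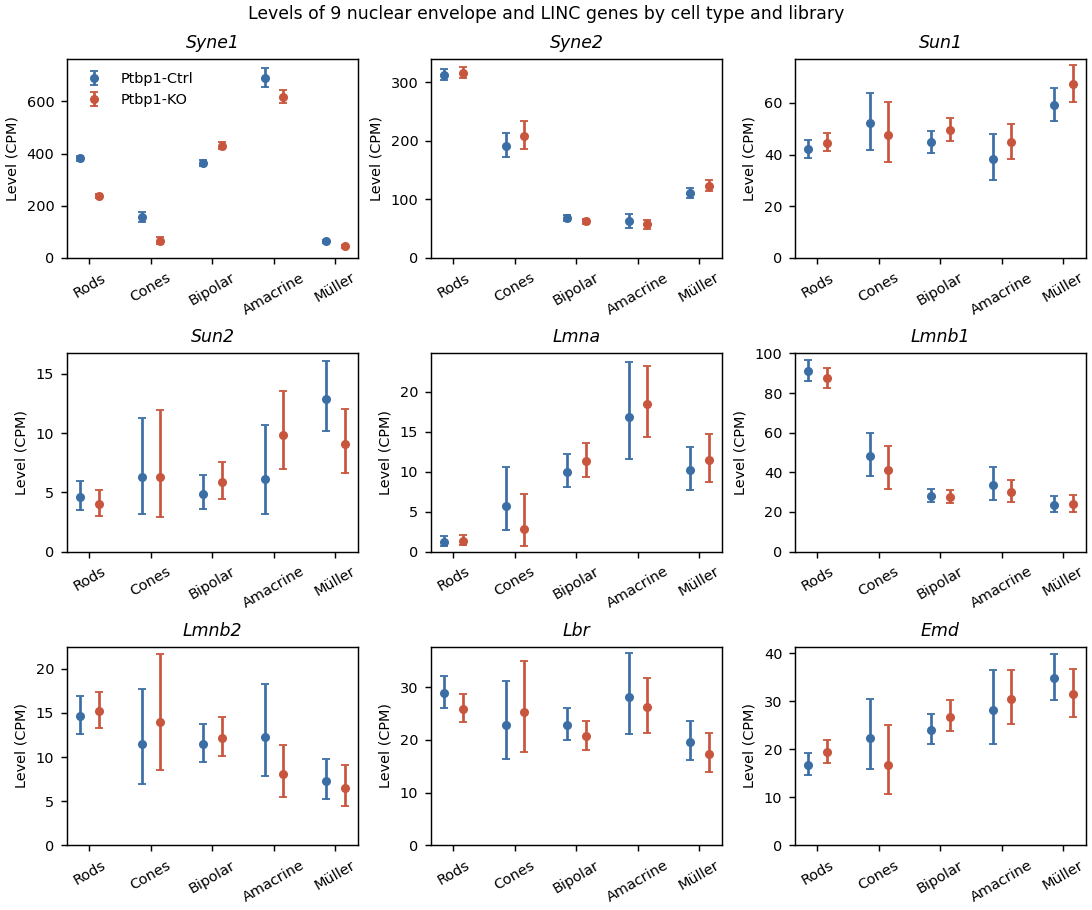
Level of each of the 9 genes (CPM, linear axes from 0) in rods, cones, bipolar cells, amacrine cells and Müller glia for Ptbp1-Ctrl (blue) and Ptbp1-KO (red), with exact 95% Poisson intervals that cover counting error only. Syne2 and Lmnb1 are highest in rods, and Lmna and Sun2 have their lowest points there, with Sun2 intervals that overlap those of cones and bipolar cells. Only Syne1 has libraries whose intervals do not overlap in rods and cones.

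Rods were then set against each other type for all 9 genes, counting a gene as lower or higher where it differed at least 2-fold in both libraries and had at least 50 UMIs over both types in each. The 2 libraries are of different genotype and are no replicates. Against Müller glia all 9 passed the minimum, with Sun2 and Lmna lower and Syne1, Syne2, Lmnb1 and Lmnb2 higher, or 2 and 4 genes, where 21.8% of 12713 genes were lower and 16.1% higher. Against bipolar cells all 9 passed, with Lmna lower and Syne2 and Lmnb1 higher, where 19.1% of 12923 genes were lower and 11.8% higher. Against amacrine cells 8 passed, none was lower and Syne2 and Lmnb1 were higher, beside 18.6% and 12.4% of 11897 genes. Against cones 8 passed, none was lower and Syne1 was higher, beside 6.66% and 5.98% of 11153 genes. Lmna, with 16 and 20 UMIs in rods, passed only through the type where it was high, and it did not pass against amacrine cells and cones. The median log2 ratio over the genes that passed was 0.57 against Müller glia, -0.12 against bipolar cells, 0.04 against amacrine cells and 0.21 against cones, and over all genes tested it was 0.09, 0.05, -0.01 and 0.07. The 9 genes thus went both ways in rods. After thinning, and without cells that held markers of other cells, Sun2 and Lmna were no longer counted as lower than in Müller glia. The log2 ratio of Lmna itself, as the mean of the libraries, stayed between -3.81 and -2.96 over all settings, whereas that of Sun2 was -0.38 without the cells that held other markers.

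**Figure D4:**
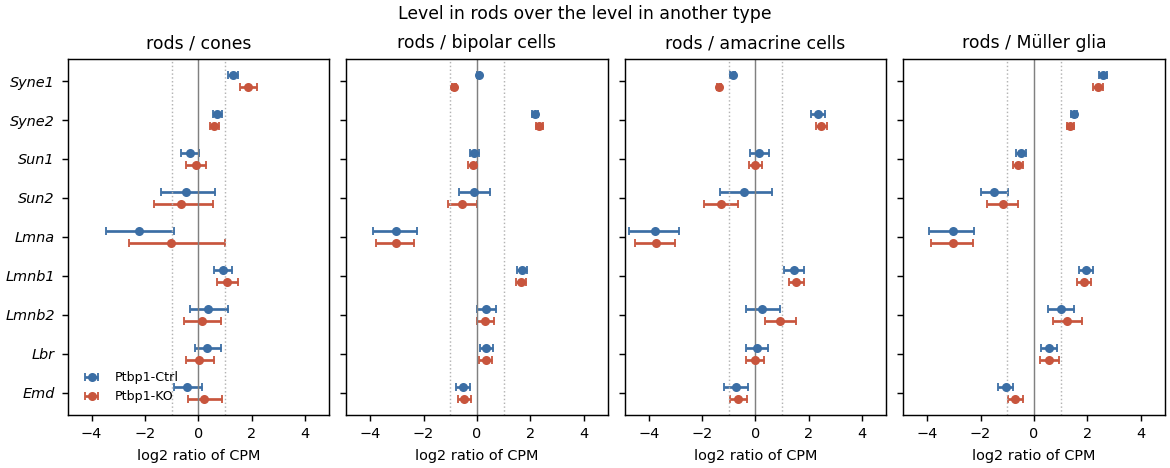
Log2 ratio of the level in rods over the level in each other type for the 9 genes, in Ptbp1-Ctrl (blue) and Ptbp1-KO (red), with exact conditional binomial 95% intervals; dotted lines mark 2-fold. Lmna lies near -3 against bipolar cells and Müller glia in both libraries, Syne2 and Lmnb1 lie above 1 against bipolar cells, amacrine cells and Müller glia, and Lbr and Sun1 lie within 2-fold throughout.

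Between the libraries, 41 of the 45 pairs of gene and type had at least 50 UMIs, and the 4 that did not were Lmna in rods and Sun2, Lmna and Lmnb2 in cones. Of these 41 pairs, 3 were at least 1.5-fold lower in Ptbp1-KO and 1 at least 1.5-fold higher, where 2.46% of 56656 pairs over all genes were lower and 5.16% higher. The lower pairs were Syne1 in rods, Syne1 in cones and Lmnb2 in amacrine cells, and the higher pair was Sun2 in amacrine cells, which had exactly the minimum of 50 UMIs and was lost from the count in several other settings. Syne1 in cones was counted although the rule chose it. Apart from Syne1, no interval of the 9 genes in the 5 types excluded 0. The background was 2.95% lower and 3.89% higher in amacrine cells and 3.11% lower and 4.64% higher in Müller glia. The median log2 ratio over the genes that passed was -0.02 in rods, -0.17 in cones, 0.15 in bipolar cells, -0.10 in amacrine cells and -0.15 in Müller glia, beside 0.07, -0.01, 0.01, 0.00 and 0.00 over all genes.

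**Figure D5:**
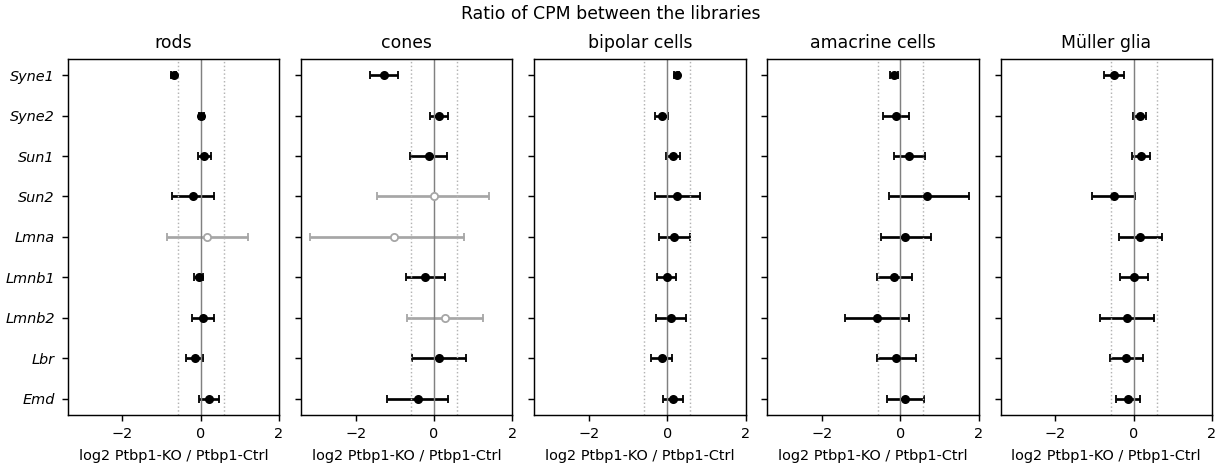
Log2 ratio of Ptbp1-KO over Ptbp1-Ctrl for the 9 genes in 5 cell types, with exact conditional binomial 95% intervals; open grey points had under 50 UMIs and dotted lines mark 1.5-fold. Syne1 lies at -0.69 in rods, -1.27 in cones and 0.24 in bipolar cells, and the intervals of the other 8 genes include 0 in every type.

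Further genes of the envelope were taken as a list of 22, of which 21 were in the count table. Between the libraries none of those that passed the minimum was past 1.5-fold in rods (19 genes), cones (14), bipolar cells (19) or amacrine cells (16). Over all genes the lower and higher shares were 1.37% and 8.95% in rods and 3.19% and 4.29% in cones. They were 2.07% and 3.53% in bipolar cells and 2.95% and 3.89% in amacrine cells, so counts of 0 in lists this small are not far from them. In Müller glia 1 of 18 was lower and 1 higher, where 3.11% of all genes were lower and 4.64% higher. Tmem38a, a cation channel of the endoplasmic and nuclear membranes, was at 21.2 and 11.99 CPM there (log2 ratio -0.82, -1.29 to -0.37) and Tmem120a at 5.76 and 9.63 CPM (0.74, 0.08 to 1.42). Syne3, which encodes the shorter nesprin 3, was at least 2-fold higher in rods than in each of the other 4 types, at 86.4 CPM (81.5 to 91.6) in Ptbp1-Ctrl and 117 CPM (112 to 123) in Ptbp1-KO. Its log2 ratio between libraries in rods, 0.44 (0.33 to 0.55), had the opposite sign to that of Syne1 and stayed within 1.5-fold. Other types had 40.1 and 47.7 CPM in cones and 16.3 to 26.0 CPM in the rest. In amacrine cells Syne3 was at 18.9% and 13.9% of its rod level, where rod markers stood at medians of 17.9% and 18.6%. For bipolar cells the values were 21.5% and 15.9%, beside medians of 15.3% and 14.6%. Syne3 in cones and Müller glia was above the rod marker medians. The part of rod RNA in these levels was not tested. Icmt, the enzyme that methylates the C terminus of prelamin A and B-type lamins, was 196 and 173 CPM in rods against 44.5 and 31.5 CPM in Müller glia, and Nrm (nurim), an inner membrane protein, was 57.8 and 60.2 CPM against 9.82 and 10.6 CPM. Cones held Icmt at 199 and 175 CPM, as much as rods, and Nrm at 44.7 and 42.1 CPM. Against Müller glia 4 of 18 genes were higher in rods, beside 16.1% of all genes, and 2, Zmpste24 and Tmem43, were lower, beside 21.8%. Zmpste24 is the protease that matures prelamin A, and its log2 ratios of rods over Müller glia were -1.11 in both libraries. They had the same direction as those of Lmna against Müller glia only. Zmpste24 was 22.6 and 25.04 CPM in rods and 21.8 and 16.8 CPM in cones. Bipolar cells had 23.9 and 21.6 CPM and amacrine cells 23.5 and 23.8 CPM. The intervals of rods overlapped those of these types in each library, whereas Lmna had its lowest level in rods. Against bipolar cells 1 of 19 was higher and 1, Tmem38a, lower, beside 11.8% and 19.1% of all genes. Against amacrine cells 3 of 18 were higher and none lower (12.4% and 18.6% of all genes), and against cones 1 of 18 was higher and none lower (5.98% and 6.66%). The list's median log2 ratio of rods over another type was 0.15 for cones, 0.22 for bipolar cells, 0.27 for amacrine cells and -0.07 for Müller glia, beside 0.07, 0.05, -0.01 and 0.09 over all genes.

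Nuclear pore genes, 28 of 29 in the table, were looked at in the same way. In rods, bipolar cells and Müller glia none of the 27 or 28 that passed was past 1.5-fold between the libraries. Over all genes the lower and higher shares were 1.37% and 8.95% in rods, 2.07% and 3.53% in bipolar cells and 3.11% and 4.64% in Müller glia. In cones 2 of 21 were lower, Nup93 at 22.9 and 14.0 CPM (log2 ratio -0.71, -1.56 to 0.10) and Nup205 at 49.3 and 30.9 CPM (-0.67, -1.23 to -0.13), where 3.19% of all genes in cones were lower. In amacrine cells 1 of 28, Nup37, was higher (0.63, -0.16 to 1.49), beside 3.89% of all genes. Nup210, a transmembrane pore protein that is absent from some cell types, was low in rods at 1.07 CPM (0.587 to 1.80) and 0.966 CPM (0.528 to 1.62). In bipolar cells it was 10.6 CPM (8.68 to 12.9) and 12.9 CPM (10.8 to 15.3), and in amacrine cells 24.02 CPM (17.7 to 31.9) and 20.998 CPM (16.7 to 26.1). With 28 UMIs in rods over both libraries, Nup210 passed the minimum only through the types where it was high. Against Müller glia 3 of 27 pore genes, Nup85, Nup155 and Ranbp2, were higher in rods and none lower, beside 16.1% and 21.8% of all genes, so that both counts lay below the share over all genes. The median of the pore genes was 0.39 against cones, 0.25 against bipolar cells, 0.30 against amacrine cells and 0.57 against Müller glia, where the medians over all genes were 0.07, 0.05, -0.01 and 0.09.

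Genes of heterochromatin, all 20 of which were in the table, formed a further list, since the tethers hold heterochromatin. Samd7 and Samd11, Polycomb components of rods, and Casz1, a zinc-finger factor of the rod lineage, were high in rods, at 183 and 232 CPM, 724 and 807 CPM and 689 and 672 CPM. Casz1 and Samd7 were not past 2-fold against cones in both libraries, whereas Samd11 and the histone H3K9 methyltransferase Suv39h2 were. Cbx5, which encodes the heterochromatin protein HP1 alpha, was 53.8 and 59.3 CPM in rods against 133 and 126 CPM in Müller glia. The linker histone H1f0 was 14.8 and 14.4 CPM in rods against 61.8 and 59.6 CPM in Müller glia. Against Müller glia 3 of 19 were lower in rods and 4 higher, beside 21.8% and 16.1% of all genes. Against amacrine cells 2 of 19 were lower and 4 higher (18.6% and 12.4% of all genes), against bipolar cells none and 4 (19.1% and 11.8%), and against cones none and 2 (6.66% and 5.98%). Apart from Suv39h2, all the higher genes were Samd7, Samd11 or Casz1, already known from rods or their lineage. The counts of higher genes thus reflect in part how the list was chosen. The median log2 ratio of the list was 0.02 against cones, 0.04 against bipolar cells, -0.13 against amacrine cells and 0.32 against Müller glia, beside 0.07, 0.05, -0.01 and 0.09 over all genes. Between the libraries none of 19 was past 1.5-fold in rods, bipolar cells or amacrine cells. The lower and higher shares over all genes were 1.37% and 8.95%, 2.07% and 3.53%, and 2.95% and 3.89% in these types, in that order. In cones Hdac3 was lower at 23.5 and 11.2 CPM (log2 ratio -1.07, -2.00 to -0.20) and Trim28 higher at 33.2 and 52.6 CPM (0.66, 0.15 to 1.18), or 1 of 19 each way beside 3.19% and 4.29% of all genes. In Müller glia Mbd1, a protein that binds methylated DNA, was 81.4 CPM (74.3 to 89.1) in Ptbp1-Ctrl and 184 CPM (173 to 196) in Ptbp1-KO (log2 ratio 1.18, 1.02 to 1.34).

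The genes whose pattern was most like that of a member were found by Pearson's r of log2(CPM + 10) over the 10 sums of 5 types and 2 libraries, among 4435 genes with a mean of at least 50 CPM. The 10 points share 2 libraries and their depth, and r is given as a description. For Syne1 these were Map3k2 (r = 0.975), Baz1b (0.973) and Rasgef1b (0.967). For Syne2 they were Acadm (0.989), Svil (0.988) and Wwc2 (0.981), and for Lmnb1 Spg7 (0.998), Ssu72 (0.995) and Sntg2 (0.995). Lmna was most like Rab14 (0.983), Rab18 (0.976) and Csnk1g3 (0.976), and Emd most like Rab21 (0.972), Arl6ip1 (0.9496) and Rorb (0.947). Sun1 was nearest to Ost4 (0.958), Ppib (0.932) and Mcee (0.923) and Lbr to Chchd6 (0.943), Ppp3r1 (0.931) and Cnot6l (0.931). The sparse genes Sun2 and Lmnb2 were nearest to Cops4 (0.9498), Capzb (0.940) and Trappc4 (0.929), and to Kmt2d (0.970), Gtf2a1 (0.967) and Zc3h14 (0.961).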

How the data were processed

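Single cells of P30 retina were captured with 10x Genomics 3' v3.1 chemistry, and per the labels reads were aligned to mm10 with Cell Ranger 7.0.1 and cells were handled in Seurat 4. The authors deposited raw UMI counts per gene and cell without normalization, and per cell the percent of mitochondrial UMIs, with clusters and cell type names, all used as deposited. All 30943 cells met the filter stated by the authors (above 200 and below 5000 genes, above 700 and below 10000 UMIs, under 20% mitochondrial). Whether intronic reads were counted is not given in the sources used here. One marker gene is not reported here and was left out of the rod markers, also for background subtraction. A further 2 columns of per-cell values were not used. The 9 genes and 3 lists were chosen with earlier results of these data known.

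Samples were grouped by their labelled genotype. UMIs were summed per library and type and given as CPM with exact Poisson intervals, ratios with exact conditional binomial intervals and shares with exact Clopper-Pearson intervals, at 95% and for counting error only. No test between genotypes was run, since cells of 1 mouse are not replicates; the Wilcoxon test over cells that the study used was not repeated. Counts of genes used at least 1.5-fold between libraries and at least 2-fold between types, with at least 50 UMIs. A count of 0 would allow up to 3 UMIs. Named genes were the 9 members, Ptbp1, for each list at most the 3 genes furthest past the fold each way, for each member the 3 genes of highest correlation, and cell type markers; the genes named for cluster 22 were chosen after their values were seen. The scripts were tested on simulated data. Scrublet (scanpy 1.11.5) called 0 doublets in either library and so had not worked, and only its scores served, to leave out the top 5% of cells as an alternative. Other alternatives were edgeR 4.0.16 TMM factors, thinning to 1000 UMIs, background subtraction, clusters of 1 type, removal of cells with other cell markers and a limit of 10% mitochondrial UMIs. Gene positions are from the GENCODE annotation of GRCm38. Python 3.11.15 and R 4.3.3 were used.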

Additional observations from a re-analysis of the deposited data

Results flagged for a closer look

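Syne1 was singled out because its log2 ratio of Ptbp1-KO over Ptbp1-Ctrl lay below 0 in some cell types and above 0 in another, each beyond counting error. It was -0.69 in rods, -1.27 in cones, -0.16 in amacrine cells and -0.50 in Müller glia, and 0.24 in bipolar cells. With 1 library per genotype the difference between types was not tested.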

How the results depend on the processing

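Cell numbers and UMIs limit the sparse genes most, since Lmna had 10 and 4 UMIs in cones and Sun2 12 in amacrine cells of Ptbp1-Ctrl. No paired analysis was possible because there was 1 library per genotype. The log2 ratio of Syne1 in cones ran from -1.38 to -1.26 over the settings, and background subtraction, which removed all Syne1 there in both libraries, gave no value in cones and in Müller glia. The subtraction can take more than the background of a gene, which also bears on the higher ratios of Syne2 and Lmnb1 after it. In Müller glia the Syne1 ratio was -1.02 after thinning, -1.18 without cells with 2 or more UMIs of other cell markers and -0.89 without the cells of highest doublet score. The removal of cells with other markers took 2183 of 2904 Müller glia, in which the endothelial marker Flt1 was 876 and 812 CPM while Cldn5 and Pecam1 were at most 2.36 CPM.

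Pairs of gene and type at least 1.5-fold lower in Ptbp1-KO numbered 3, with 6 at the smaller fold tried and 1 at 2-fold. The 1 higher pair was lost (0) at 2-fold, after background subtraction, under 10% mitochondrial UMIs, without other-marker cells and without the cells of highest doublet score. After thinning, Sun2 had a UMI in only 4 and 10 amacrine cells and was lost as well. Sun1 in amacrine cells was counted there instead, with a log2 ratio of 0.78. Genes higher in rods at 3-fold were 2 against Müller glia, 1 against amacrine cells and 0 against cones, and against cones 3 at 1.5-fold and 2 after background subtraction. Genes lower in rods than in Müller glia were 1 at 3-fold, 0 after thinning and 0 without other-marker cells, and those lower than in bipolar cells 0 after thinning. Lower than in amacrine cells were 2 at 1.5-fold, 1 after background subtraction, 1 after thinning and 1 with no minimum, and lower than in cones 1 with no minimum. The ratio of Lmna in cones between libraries, from 14 UMIs in all, turned from -1.03 to 0.47 after thinning. Of other single values 51 moved beyond their interval and 581 did not. TMM factors shifted amacrine cells against rods by 0.19 and 0.12 (log2) and no other type by over 0.1. The causes were not tested.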

Other observations

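Gene length was looked at because Syne1 and Syne2 are very long and intronic reads may have been counted. In rods the 955 genes spanning 200 kb or more had a median log2 ratio of Ptbp1-KO over Ptbp1-Ctrl of 0.33 (5th to 95th percentile -0.09 to 1.14), against 0.00 for 3113 genes under 10 kb. Syne1, at -0.69, went against this, and 5 of the 955 long genes had a ratio as low or lower, Syne1 included. In cones the 497 long genes had a median of 0.05 (-0.44 to 0.62), and 2 of them, Syne1 included, were as low as -1.27. Syne2, also over 200 kb, stayed at 0.01 in rods.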
